A study of Mus musculus with 13 samples.

Results

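The feedback and survival target genes of NF-kB described here are 10 genes, taken by symbol from a table of read counts that held 26720 genes. They are Tnfaip3, Tnip1, Bcl3, Nfkbid, Nfkbiz, Traf1, Birc3, Cflar, Icam1 and Ltb. Each symbol matched 1 row, every library had reads of each gene, and all 10 passed the filter on low counts. The study sequenced RNA of 13 libraries made from CD4+YFP+ cells sorted from the spleens of mice around 4 to 5 weeks old. Of these, 7 libraries came from Foxp3YFPCre mice (control). The other 6 came from Foxp3YFPCre/+Stk3∆/∆Stk4∆/∆ mice (deleted), in which Cre removes Stk3 and Stk4, a pair of Hippo pathway kinases. Both groups carry the Cre and YFP allele at Foxp3, which encodes the lineage factor of regulatory T (Treg) cells, so recombination is limited to cells that express Foxp3. The labels mark the deleted group as heterozygous for that allele. Since Foxp3 is X-linked, a heterozygous female also has Treg cells with both kinases, which lack YFP and fall outside the sort. The sex of the control mice and the zygosity of their Cre allele are not given in the labels, so Cre dose and deletion cannot be told apart. The source mouse of each library is not labelled, and p-values therefore describe the spread over libraries.

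NF-kB is a family of dimeric transcription factors held in the cytoplasm by inhibitors of the IkB family. Signals from the T cell receptor and from receptors of the tumour necrosis factor (TNF) family free the dimers, which enter the nucleus and bind kB sites in DNA. Many genes switched on this way act back on the pathway: A20 (Tnfaip3) and its partner ABIN1 (Tnip1) dampen signalling, and nuclear IkB proteins (Bcl3, Nfkbid, Nfkbiz) modify what the dimers do at promoters. Others protect the cell from death (Traf1, Birc3, Cflar), or encode an adhesion molecule (Icam1) and a cytokine subunit (Ltb). In Treg cells, NF-kB signalling through RelA and c-Rel is known to be needed for their development and for their effector state.

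The promoters of 4 genes are shown because 3 of the genes were lower in the deleted libraries (Tnip1, Icam1 and Ltb) and 1, Tnfaip3, was not called, while all 4 hold letters of a kB site. Each run gives the 250 bases before the RefSeq start site, 5′ to 3′ on the strand of the gene, from GRCm38.p6. Capitals mark matches to the NF-kB consensus decamer, searched on both strands, or to the 9 letters GGAANTTCC. The Tnfaip3 promoter lies at chr10:19015411-19015660 on the minus strand, that of Tnip1 at chr11:54962941-54963190 on the minus strand, that of Icam1 at chr9:21015690-21015939 on the plus strand and that of Ltb at chr17:35194257-35194506 on the plus strand.
Tnfaip3: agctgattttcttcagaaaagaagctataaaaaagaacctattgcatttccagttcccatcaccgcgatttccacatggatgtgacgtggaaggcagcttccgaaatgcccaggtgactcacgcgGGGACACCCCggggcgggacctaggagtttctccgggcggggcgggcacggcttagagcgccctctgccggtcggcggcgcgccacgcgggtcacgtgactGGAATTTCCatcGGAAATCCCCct
Tnip1: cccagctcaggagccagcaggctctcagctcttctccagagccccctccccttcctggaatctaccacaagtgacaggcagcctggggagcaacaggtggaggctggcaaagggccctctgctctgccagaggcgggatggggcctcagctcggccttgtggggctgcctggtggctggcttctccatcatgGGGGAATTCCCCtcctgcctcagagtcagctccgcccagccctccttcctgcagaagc
Icam1: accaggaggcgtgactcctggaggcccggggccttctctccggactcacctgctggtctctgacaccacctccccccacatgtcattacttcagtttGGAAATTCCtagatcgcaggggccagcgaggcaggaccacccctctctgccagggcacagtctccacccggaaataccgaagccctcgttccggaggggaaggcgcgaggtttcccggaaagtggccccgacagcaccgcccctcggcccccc
Ltb: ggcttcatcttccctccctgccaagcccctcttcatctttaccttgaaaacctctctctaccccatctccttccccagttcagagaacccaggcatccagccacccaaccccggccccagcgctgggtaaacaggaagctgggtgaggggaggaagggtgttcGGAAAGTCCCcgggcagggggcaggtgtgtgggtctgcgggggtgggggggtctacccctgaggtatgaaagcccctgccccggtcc
Of the 10 genes, 9 had at least 1 entry in the RefSeq promoter table, which covers 250 bases before and 50 after each start. The gene without an entry was Nfkbiz. These 9 genes have 12 promoters in it. The decamer was found in 5 of the 12, 1 each of Tnfaip3, Tnip1, Bcl3, Nfkbid and Ltb, against 4.51% of all 32851 promoters. The 9 letters were found in 2 of the 12 (Icam1 and Tnfaip3), against 0.928% of all promoters. In Tnip1 the decamer matched at 4 overlapping places and orientations between positions -58 and -47, and in Ltb it matched once, at -87 to -78. In Icam1 the 9 letters lay at -153 to -145. Tnfaip3 held 2 decamer matches, at -125 to -116 and at -12 to -3, and the 9 letters at -24 to -16. The matches of Nfkbid lay at a second annotated start, at -226 to -217 (GGGACTTCCC) and at -181 to -172 (GGAATTCCCC), and that of Bcl3 just past the start, at 3 to 12 (GGGAAGTCCC). A match describes letters in this window and no binding was measured. Matches were held by genes that passed the test of the deletion and by genes that did not.

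The libraries differed in more than genotype. Deleted libraries held 2671660 to 4569655 counts and control libraries 3705511 to 8323919 (two-sided exact permutation p = 0.00816). The share of counts from olfactory and vomeronasal receptors, genes of sensory neurons, averaged 1.27 ± 0.362% (SD, n = 6) in the deleted group. It averaged 0.705 ± 0.254% (SD, n = 7) in the control group (two-sided exact permutation p = 0.00699). Counts of the targeted genes did not separate the groups: Stk4 ran from 57.9 to 394 counts per 1e6 (CPM) in deleted and from 136 to 291 CPM in control libraries, and Stk3 from 26.8 to 44.2 CPM in deleted and from 24.8 to 47.9 CPM in control libraries. Reads summed along a gene can come from exons outside a deleted stretch, so these values check no label. The highest Stk4 level belonged to deleted replicate 1, which also had the lowest receptor share of its group (0.752%). Summed levels of 8 Treg and T cell markers, Foxp3 and Cd4 among them, were 1027 to 2218 CPM in deleted and 1586 to 6296 CPM in control libraries, and 6 of the 8 were lower, led by Ctla4 (87.4 against 257 CPM), Cd3e (168 against 428 CPM) and Cd3g (359 against 856 CPM). Foxp3 itself was at 44.0 against 54.1 CPM (adjusted p = 0.463). Summed levels of 8 B cell markers were 166 to 245 CPM in deleted and 399 to 1199 CPM in control libraries. Of these 3 were lower, namely Ighm (85.2 against 596 CPM), Cd74 (19.3 against 69.8 CPM) and Cd79b (12.5 against 36.1 CPM), and 1, Ms4a1, was higher (34.1 against 21.9 CPM). Markers were called by the edgeR test described below, in which 8.52% of all genes were lower and 1.66% higher. Among genes of at least 50 mean CPM, 23.9% were lower. No B cell marker was at 0 in any library. B cells also use NF-kB, and the part of B cell RNA in the results was not tested. In bulk RNA of sorted cells, fewer cells that express a gene and less RNA per cell cannot be told apart.

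Whether deletion of the Hippo kinases changes what NF-kB drives in Treg cells is the question of the comparison, a question posed by the title of the series, which names a complex of Stk4, Foxp3 and p65. Of the 10 genes, 4 fell in the deleted libraries: Icam1, Traf1, Ltb and Tnip1. None of the 10 rose, and 6 did not pass the test (edgeR's quasi-likelihood test, Benjamini-Hochberg adjustment over 24068 genes, threshold 0.05). Over all genes tested, 8.52% were lower and 1.66% were higher. The count of 0 higher was also 0 at an unadjusted p under 0.05, which 8.86% of all genes passed as higher, and 0 with DESeq2, where 3.08% were higher. DESeq2 gave 5 of the 10 genes as lower, beside 10.9% of all genes. Among the 8511 genes within the range of mean level of the 10 genes (31.3 to 542 CPM), 19% were lower and 0.952% were higher. In 1.44% of all genes every deleted library lay below every control library, and 0 of the 10 genes were among them. The median log2 fold change of the 10 genes was -0.59, against 0.06 over all genes tested and -0.27 over the genes in that range of level. Genes of at least 50 mean CPM, which include 8 of the 10 genes, had a median of -0.38, and 23.9% of them were lower. Leaving out 1 library at a time gave 1 to 5 of the 10 genes lower, beside 4.26 to 13.6% of all genes. The count was 3 without deleted replicate 2 or 4 or control replicate 3, 6 or 7. It was 2 without deleted replicate 3 or 7 or without control replicate 4 or 5, and 1 without deleted replicate 5. Without deleted replicate 1 and control replicate 2 together, a fit added after the values were seen, Nfkbid joined the 4 genes, beside 15.7% of all genes lower and 5.03% higher.

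**Figure D1:**
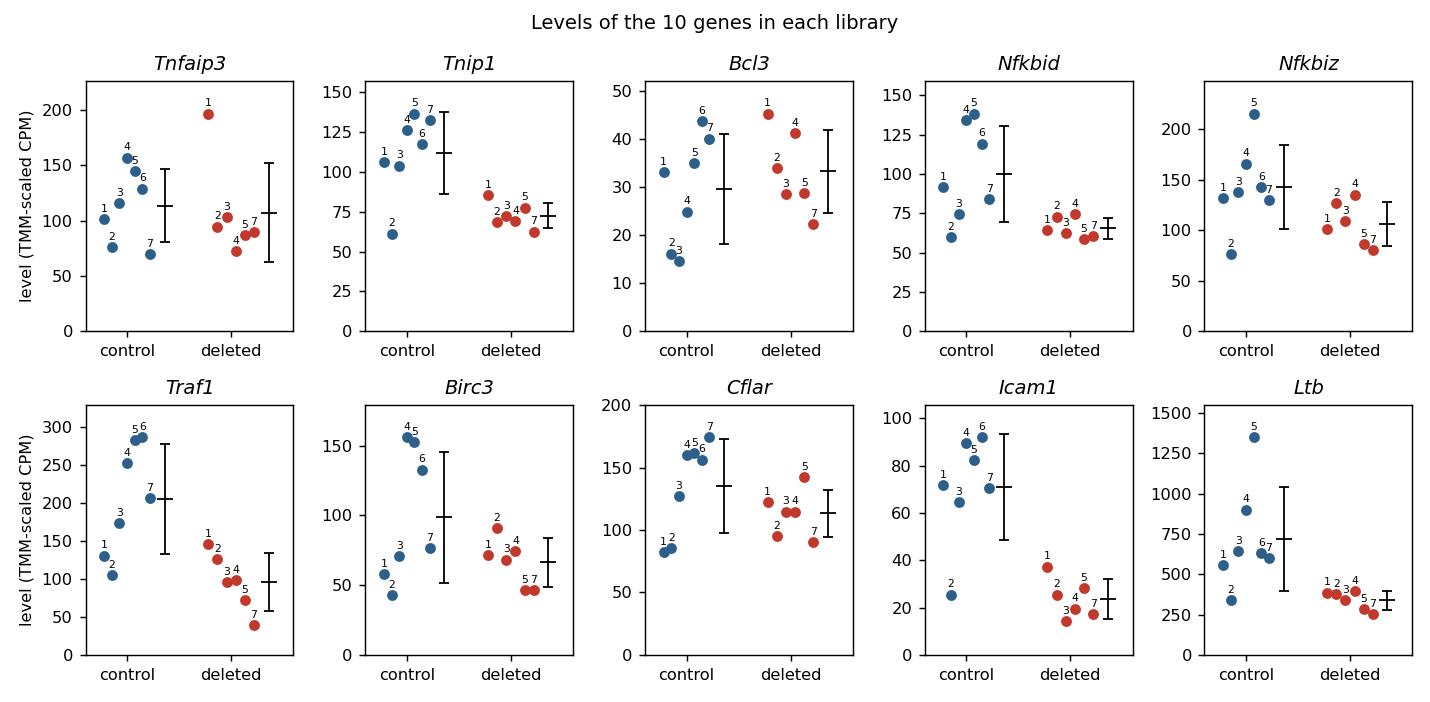
Level of each gene in every library, in counts per 1e6 counts after TMM scaling, with control libraries in blue and deleted libraries in red, labelled by replicate number. Black marks give the mean and SD of 7 control and 6 deleted libraries. For Icam1 the 6 deleted libraries lie between 14.3 and 37.4 CPM and only control replicate 2, at 25.5 CPM, reaches that range.

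A20 and ABIN1, the enzyme and its adaptor that remove or edit ubiquitin chains on NF-kB signalling complexes, behaved unequally. Tnfaip3 (gene number 21929; GRCm38 chromosome 10, 19000910 to 19015410) ran from 72.5 to 197 CPM with a median of 92.3 in deleted, and from 69.9 to 157 CPM with a median of 116 in control libraries. The groups overlapped throughout, and the highest value of all belonged to deleted replicate 1. The log2 fold change was -0.08 (SE 0.25, adjusted p = 0.871), with a 95% interval of -0.60 to 0.43. Without deleted replicate 1 it was -0.35 (adjusted p = 0.328), and under the scaling by genes of at least 50 mean CPM it was 0.30 (adjusted p = 0.289). Its direction thus differed between settings.

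Tnip1 (57783; chromosome 11, 54910787 to 54962956) ran from 62.5 to 85.6 CPM with a median of 70.5 in deleted, and from 61.2 to 136 CPM with a median of 117 in control libraries. Except for control replicate 2, every control library lay above every deleted library. Its mean was 72.5 ± 8.08 CPM (SD, n = 6) against 112 ± 25.6 CPM (SD, n = 7). The gene fell by 0.63 on the log2 scale (SE 0.20, adjusted p = 0.0494), at the edge of the threshold. It passed without deleted replicate 1 or without control replicate 1 or 2, and the call ended when any 1 of the 10 other libraries was left out (adjusted p = 0.0612 to 0.114). It also ended with DESeq2 size factors (adjusted p = 0.0563), with upper quartile scaling (adjusted p = 0.125) and without a filter on low counts (adjusted p = 0.0513).

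None of the nuclear IkB genes was called. Nfkbid (243910; chromosome 7, 30421731 to 30428749) encodes IkBNS, which in mice is known to promote Foxp3 expression during Treg development. It ran from 58.3 to 74.4 CPM with a median of 63.2 in deleted, and from 60.0 to 138 CPM with a median of 91.5 in control libraries. The control libraries spread widely, and 5 of the 7 lay above every deleted library. The log2 fold change was -0.62 (SE 0.21, adjusted p = 0.0639). It passed with DESeq2 (adjusted p = 0.0382), with limma-voom (adjusted p = 0.0462) and when control replicate 2 was left out (adjusted p = 0.0149).

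Nfkbiz (80859; chromosome 16, 55811375 to 55838954), which encodes IkB-zeta, ran from 80.5 to 135 CPM with a median of 105 in deleted, and from 76.6 to 216 CPM with a median of 138 in control libraries. The 4 highest libraries were controls and the lowest was control replicate 2. Its log2 fold change was -0.42 (SE 0.23, adjusted p = 0.245). Bcl3 (12051; chromosome 7, 19808462 to 19822824), a partner of p50 and p52 homodimers, ran from 22.3 to 45.3 CPM with a median of 31.3 in deleted, and from 14.5 to 43.8 CPM with a median of 33.1 in control libraries. The groups overlapped throughout, and the lowest values belonged to control replicates 2 and 3. Bcl3 alone of the 10 genes had a log2 fold change above 0, at 0.17 (SE 0.26, adjusted p = 0.717), with a 95% interval of -0.36 to 0.70. Without deleted replicate 1 and control replicate 2 together it was -0.04.

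Among the survival genes, Traf1 fell and its partners in the list did not pass the test. Traf1 (22029; chromosome 2, 34941750 to 34961812) encodes an adaptor of TNF receptor signalling that binds TRAF2 and the inhibitor of apoptosis proteins. It ran from 39.1 to 145 CPM with a median of 97.3 in deleted, and from 105 to 286 CPM with a median of 207 in control libraries. The deleted libraries were lowest in replicate 7, and 4 of 6 lay below every control library. The log2 fold change was -1.09 (SE 0.29, adjusted p = 0.0192), from 205 ± 72.3 CPM (SD, n = 7) in control to 96.1 ± 37.9 CPM (SD, n = 6) in deleted libraries. Without deleted replicate 5 the call ended (-0.96, adjusted p = 0.0658), and it stayed in the other 12 fits that left out 1 library.

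Birc3 (11796; chromosome 9, 7847468 to 7873205) encodes cIAP2, a ubiquitin ligase that works with TRAF1 and TRAF2. It ran from 46.2 to 91.1 CPM with a median of 69.9 in deleted, and from 42.8 to 156 CPM with a median of 76.5 in control libraries. The 3 control libraries above all others were replicates 4, 5 and 6. The log2 fold change was -0.57 (SE 0.28, adjusted p = 0.196). Cflar (12633; chromosome 1, 58711311 to 58758884), which encodes the caspase-8 inhibitor cFLIP, ran from 90.5 to 142 CPM with a median of 115 in deleted, and from 82.5 to 174 CPM with a median of 156 in control libraries. Control replicates 1 and 2 lay below every deleted library and control replicates 4, 5, 6 and 7 above. Its log2 fold change was -0.26 (SE 0.22, adjusted p = 0.492), and 0.16 under the scaling by genes of at least 50 mean CPM.

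Icam1, the ligand of the integrin LFA-1, had the largest change of the 10 genes and the 90th smallest p of all genes tested. Icam1 (15894; chromosome 9, 21015940 to 21028814) ran from 14.3 to 37.4 CPM with a median of 22.5 in deleted, and from 25.5 to 92.0 CPM with a median of 71.7 in control libraries. Deleted replicate 1 was the highest of its group and control replicate 2 the lowest of its group by far. The means were 23.7 ± 8.49 CPM (SD, n = 6) and 70.9 ± 22.5 CPM (SD, n = 7), and the gene fell by 1.58 on the log2 scale (SE 0.27, adjusted p = 0.00113). The call stayed in all 13 fits that left out 1 library, with -1.76 to -1.47.

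Ltb (16994; chromosome 17, 35194507 to 35196305) encodes lymphotoxin beta, which joins lymphotoxin alpha in a membrane trimer that signals through the lymphotoxin beta receptor. It ran from 251 to 393 CPM with a median of 357 in deleted, and from 341 to 1348 CPM with a median of 633 in control libraries. Control replicates 4 and 5 stood highest, and all controls but replicate 2 lay above every deleted library. The log2 fold change was -1.09 (SE 0.30, adjusted p = 0.023), from 717 ± 323 CPM (SD, n = 7) to 338 ± 59.4 CPM (SD, n = 6). The call ended without deleted replicate 3 (adjusted p = 0.0535), 5 (0.0712) or 7 (0.0581), and likewise when control replicate 4 (0.0529) or 5 (0.0538) was left out.

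Inside the groups, levels of most of these genes were lower where the receptor share was higher, as they often were for other expressed genes. The 3 control libraries with the lowest receptor share, replicates 4, 5 and 6 (0.366 to 0.551%), were the 3 highest controls for 6 of the 10 genes: Tnfaip3, Birc3, Traf1, Icam1, Nfkbid and Nfkbiz. The same held for 34% of 5065 other genes of at least 50 mean CPM. Control replicate 2, with the highest share of its group (1.06%), was the lowest control for 7 of the 10, and for 50.9% of those other genes. Deleted replicate 7, with the highest share of all (1.87%), was the lowest deleted library for 7 of the 10, and for 44.8% of those other genes. At nearly equal shares, deleted replicate 1 (0.752%) had 37.4 CPM of Icam1 and 386 CPM of Ltb, and control replicate 3 (0.753%) had 64.5 and 642 CPM. The same pair of libraries differed the other way for Tnfaip3 (197 against 116 CPM) and Bcl3 (45.3 against 14.5 CPM), and hardly for Birc3 (71.6 against 70.9 CPM). Deleted replicate 4 (1.12%) and control replicate 2 (1.06%) were also close in share. Icam1 was there at 19.6 against 25.5 CPM, and Ltb differed the other way, at 393 against 341 CPM. Each pair holds only 1 library per group.

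**Figure D2:**
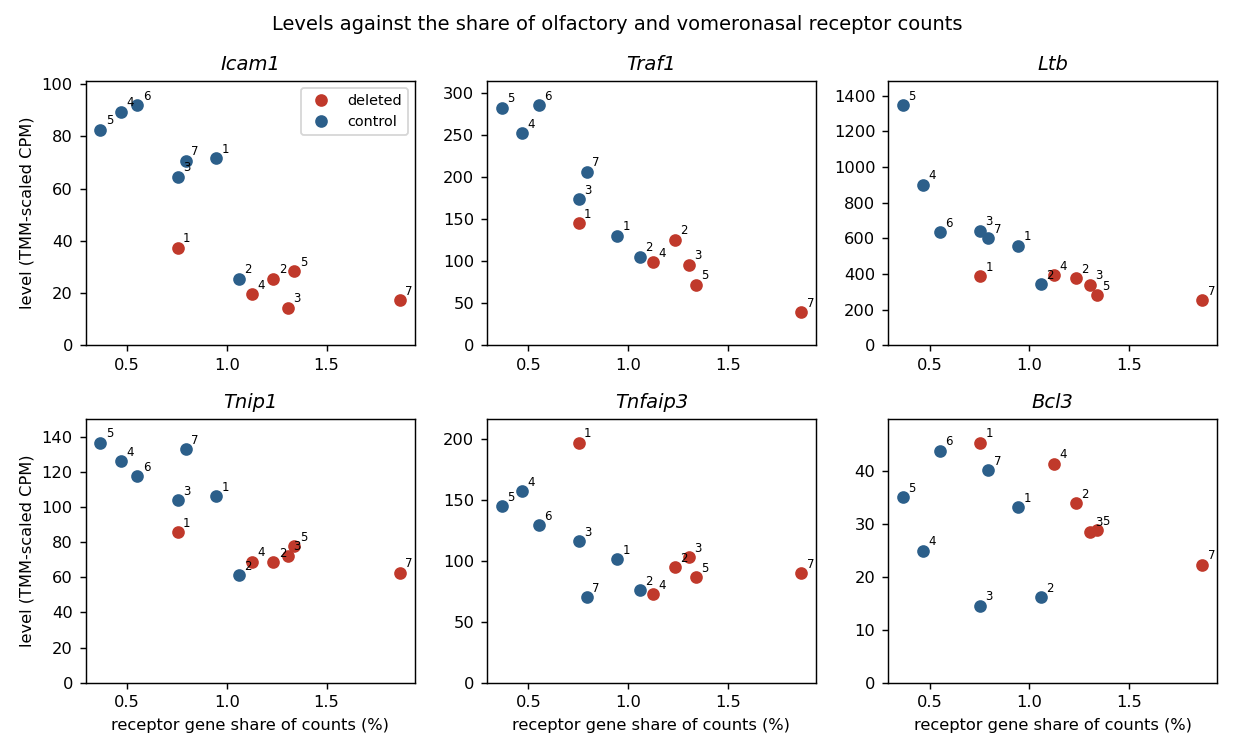
Level of 6 of the genes in CPM against the share of counts from olfactory and vomeronasal receptor genes in percent, 1 point per library labelled by replicate number. Levels of Traf1 and Ltb fall along the share in both groups, while for Bcl3 the lowest control library, replicate 3 at 14.5 CPM, has a middle share of 0.753%.

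With the log receptor share as a covariate, 0 of the 10 genes passed the test in either direction (edgeR, 1 lower and 1 higher at an unadjusted p under 0.05), where 0.233% of all genes were lower and 0.224% higher. There Icam1 was at -0.93 (SE 0.28, adjusted p = 0.205), Traf1 at -0.18 (SE 0.23), Ltb at -0.24 (SE 0.23) and Tnip1 at -0.25 (SE 0.21), while Birc3 moved to 0.49 (SE 0.26) and Tnfaip3 to 0.55 (SE 0.23). The share itself differed between the groups, so the covariate takes up part of the group difference. Share and genotype cannot be told apart in this design, and the source of the receptor counts was not tested. Between 0.7 and 1.4% of receptor counts lay 5 deleted and 4 control libraries, in which again none passed (3 lower and 0 higher at an unadjusted p under 0.05), where 0.418% of all genes were lower and 0.157% higher. Shares in these libraries ran from 0.752 to 1.34% in deleted and from 0.753 to 1.06% in control, so the groups were not fully matched. Icam1 was there at -1.22 (SE 0.30, adjusted p = 0.0638), Ltb at -0.59 (SE 0.26), Traf1 at -0.52 (SE 0.25) and Tnip1 at -0.44 (SE 0.22). Under scaling by the genes of at least 50 mean CPM, which moved genes up by a median of 0.36, Icam1 (-1.19), Traf1 (-0.69) and Ltb (-0.64) stayed lower (adjusted p = 0.00421, 0.0389 and 0.0318) and Tnip1 did not pass (-0.22, adjusted p = 0.324). That scaling gave 695 genes lower (2.89%) and 881 higher (3.66%), and upper quartile scaling 1208 lower and 761 higher, against 2050 and 400 in the TMM fit.

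**Figure D3:**
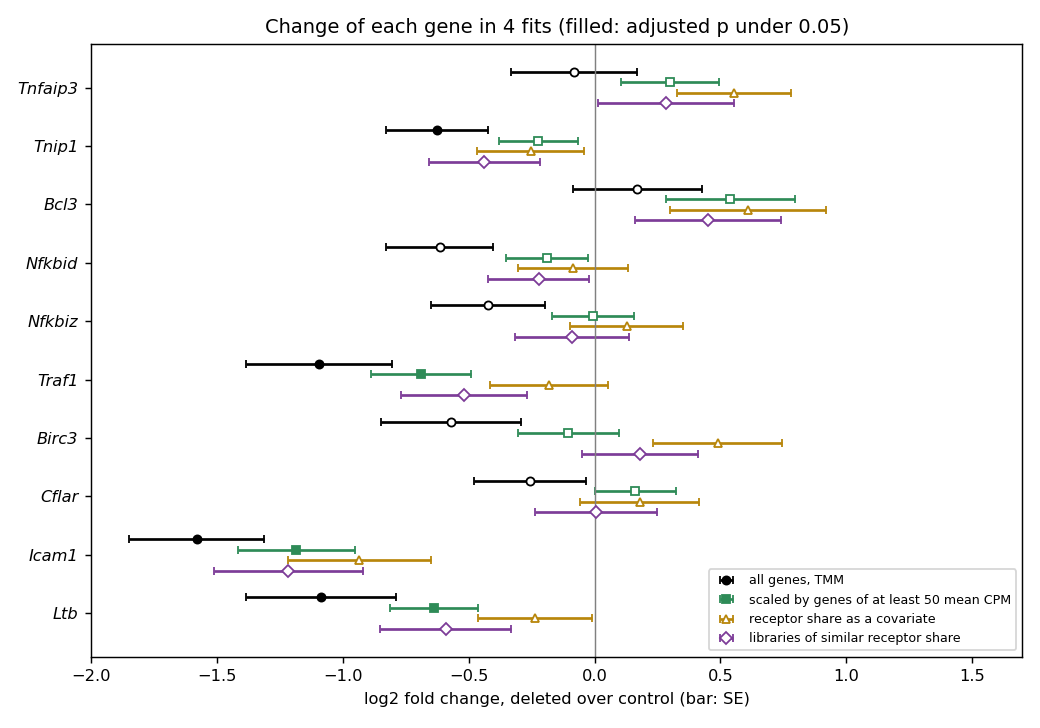
Log2 fold change of each gene, deleted over control, in 4 fits, with bars of 1 SE and filled symbols for an adjusted p under 0.05. Icam1 lies furthest below 0 in each fit, from -1.58 to -0.93, and Tnfaip3, Birc3, Cflar and Nfkbiz have values on both sides of 0.

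Ratios of counts within a library need no scaling factor, and were computed for all 45 pairs of the 10 genes after the values above had been seen. The genes did not change by a common factor. The log2 ratio of Icam1 to Bcl3 ran from -1.08 to -0.03 in deleted and from 0.65 to 2.15 in control libraries, with no overlap. It differed by -1.80 (two-sided exact permutation p = 0.000583, the smallest that 1716 splits allow, and 0.00874 adjusted over the pairs). The ratio of Tnfaip3 to Icam1 was higher by 1.46 in the deleted libraries, that of Traf1 to Bcl3 lower by 1.36, that of Bcl3 to Ltb higher by 1.23 and that of Nfkbiz to Ltb higher by 0.60, each without overlap (two-sided exact permutation p, adjusted over the pairs, 0.00874 for each).

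In all, 26 of 45 pairs (57.8%) had an exact permutation p under 0.05, 21 after adjustment, and 5 (11.1%) did not overlap. Between one of the 10 genes and each of 5065 other genes of at least 50 mean CPM, 44.1% of ratios had such a p and 6.52% did not overlap, so ratios that changed were also common between the 10 genes and others. In the libraries of similar receptor share, where 126 splits allow no p below 0.00794, the ratio of Icam1 to Bcl3 differed by -1.74, that of Traf1 to Bcl3 by -1.08 and that of Bcl3 to Ltb by 1.12. Each of these, and the ratio of Tnfaip3 to Icam1, reached that p (two-sided exact permutation p = 0.00794) without overlap, and that of Nfkbiz to Ltb differed by 0.49 (two-sided exact permutation p = 0.0159). These 5 ratios did not overlap over all libraries and so could not overlap in a part of them. Their separation at similar share was thus fixed beforehand and is no test of the receptor share. Of the 45 pairs, 19 had an exact permutation p under 0.05 in these libraries and 8 did not overlap. Birc3 to Traf1, Birc3 to Ltb and Bcl3 to Tnip1 separated only there. Separation is easier to reach with fewer libraries, and no share over other genes was computed for this part.

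**Figure D4:**
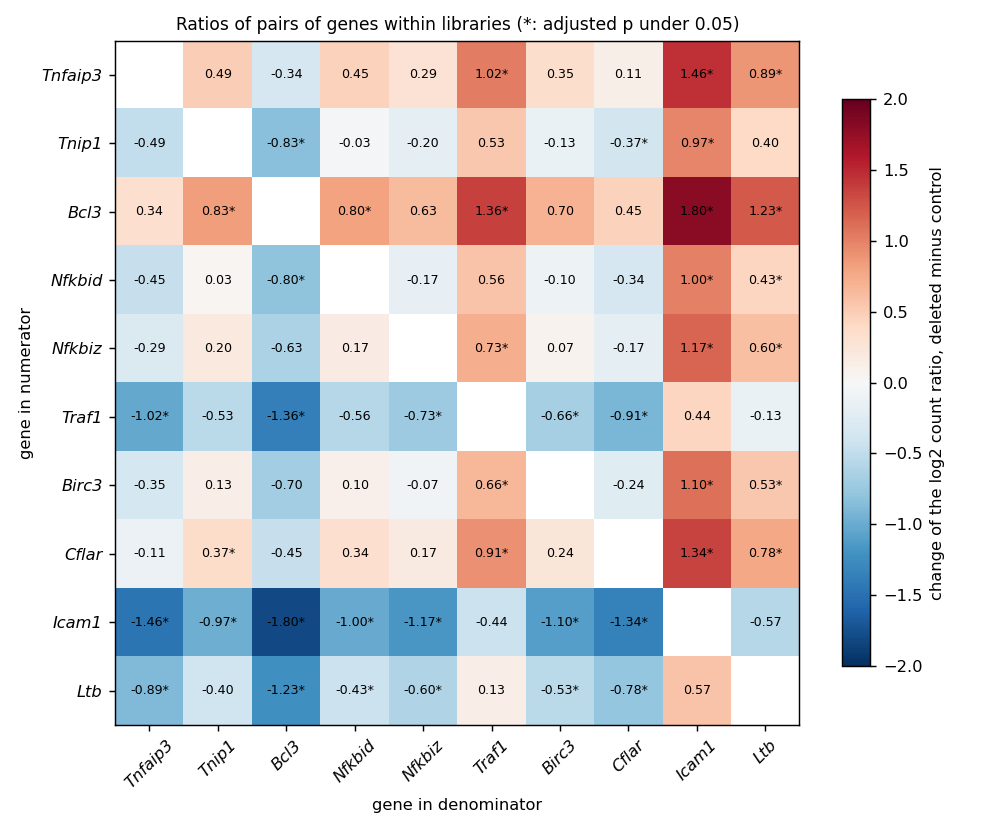
Change of the log2 ratio of counts of 2 genes within a library, deleted minus control, for all pairs of the 10 genes, with stars for an exact permutation p under 0.05 after adjustment over the 45 pairs. The row of Icam1 is negative against every other gene, with a star for all but Traf1 and Ltb, and the row of Bcl3 is positive throughout.

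Within groups the 10 genes varied together across libraries. After centring each group at its mean, all 45 pairs had a Pearson's r above 0 over the 13 libraries, with a median of 0.633 and a range of 0.212 (Tnfaip3 with Bcl3) to 0.945 (Nfkbiz with Ltb). The median r of the 10 genes with other genes of at least 50 mean CPM was 0.529, and all of these values share the libraries, their depth and their receptor share. Among 5065 such genes, the gene most like Ltb was Ptprcap (r = 0.982), the gene most like Nfkbiz was Slc1a5 (r = 0.978) and the gene most like Traf1 was Nelfb (r = 0.966). Next came Eif1ad for Birc3 (r = 0.962), Sh2d2a for Nfkbid (r = 0.960), Tut7 for Tnip1 (r = 0.957) and Gvin2 for Cflar (r = 0.942). Pitpnc1 was most like Icam1 (r = 0.933), Cyfip1 most like Tnfaip3 (r = 0.930) and Arf5 most like Bcl3 (r = 0.923). Of these genes, Ptprcap (-1.34, adjusted p = 0.00761) and Sh2d2a (-1.20, adjusted p = 0.00788) were lower in the deleted libraries.

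The rest of the pathway is given by 4 lists that share some genes. The lists were chosen with earlier results of these data known, so their counts are a description and no separate support. Beside their counts stand the 8.52% of all genes, and the 19% of genes in the range of level of the 10 genes, that were lower, the latter with a median log2 fold change of -0.27. Among genes of at least 50 mean CPM, 23.9% were lower, with a median of -0.38. Of 8 NF-kB subunits and cytoplasmic inhibitors, 4 fell (50%) and 0 rose, with a median log2 fold change of -0.75. The smallest p belonged to Nfkb2, the precursor of p52 (-1.10, SE 0.21, adjusted p = 0.00337), Nfkbie, which encodes IkB-epsilon (-1.22, SE 0.26, adjusted p = 0.00615), and Nfkbib, which encodes IkB-beta (-0.75, SE 0.20, adjusted p = 0.0228). Rela, which encodes p65, fell as well (-0.89, SE 0.26, adjusted p = 0.0311). Of 30 other target genes of NF-kB, 17 fell (56.7%) and 0 rose, with a median of -1.10 beside -0.59 for the 10 genes. They were led by Cd83, an activation marker (17.8 against 171 CPM), and by Bcl2a1b (13.4 against 96.3 CPM) and Bcl2a1d (9.54 against 45.1 CPM), near-identical copies of a Bcl-2 family survival gene whose separate values are uncertain. Adjusting for receptor share left 5 of these 30 genes lower, beside 0.233% of all genes, and the libraries of similar share also gave 5, beside 0.418%. Both fits reuse libraries whose earlier results were known when the list was chosen, so these counts are no separate check.

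Of 29 genes of upstream signalling, 8 fell (27.6%) and 0 rose, with a median of -0.38. That median equals the -0.38 over all genes of at least 50 mean CPM, of which 23.9% were lower. The smallest p belonged to the TNF receptor gene Tnfrsf1b (-1.58, SE 0.35, adjusted p = 0.00709), the adaptor gene Myd88 (-1.16, SE 0.26, adjusted p = 0.00721) and Sharpin, a subunit of the linear ubiquitin chain assembly complex (-1.15, SE 0.27, adjusted p = 0.00918). Of 16 genes whose products bind or act with those of the 10 genes, 5 fell (31.25%) and 0 rose, with a median of -0.54. Besides Nfkb2 these were led by Itgal, the alpha chain of LFA-1 that binds ICAM-1, at 190 against 447 CPM (-1.23, adjusted p = 0.0114), and by Lta, the partner of lymphotoxin beta, at 63.9 against 151 CPM (-1.24, adjusted p = 0.0126). Both the ligand Icam1 and the receptor chain Itgal were lower, as were both subunits of the lymphotoxin trimer. Ltbr, the receptor gene of that trimer in the same list, was not called (0.07, adjusted p = 0.953). The T cell markers Cd3e (-1.35) and Cd3g (-1.26) fell by amounts similar to those of Itgal and Lta. At an unadjusted p under 0.05 the count of higher genes was 1 among the other targets and 0 in the other 3 lists, and it was 0 in each list with DESeq2. Under scaling by genes of at least 50 mean CPM, the genes lower were 16 of the other targets, 2 of the subunits and inhibitors, 3 of upstream signalling and 3 of the partners. Adjusting for receptor share left 0 genes lower in the last 3 lists, and 0 of their genes were lower in the libraries of similar share.

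**Figure D5:**
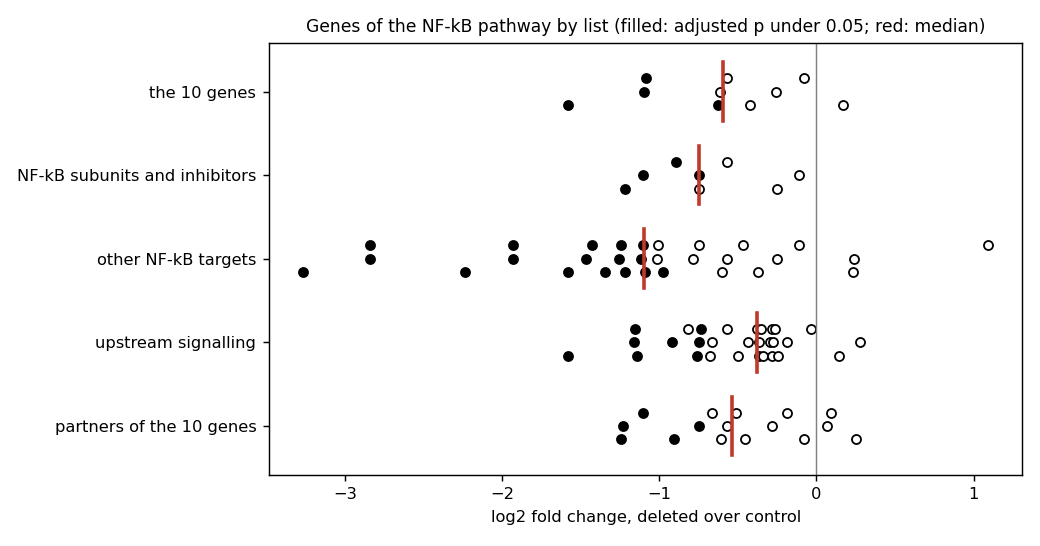
Log2 fold change, deleted over control, of each gene in 5 lists of the NF-kB pathway, with filled points for an adjusted p under 0.05 and a red line at each list's median. The medians run from -1.10 for the other NF-kB targets to -0.38 for upstream signalling, against -0.59 for the 10 genes.

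In the authors' deposited table, the mean log2 fold changes were -1.57 for Icam1, -1.10 for Traf1, -1.05 for Ltb and -0.61 for Tnip1, with mean false discovery rates of 0.0013, 0.0134, 0.015 and 0.0461. The remaining 6 genes had mean false discovery rates of 0.0706 (Nfkbid) or more in the authors' deposited table, which rests on the same counts.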

How the data were processed

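Read counts per gene were deposited by the authors for 13 libraries of spleen Treg cells. Per the labels' protocols, cDNA was made with a SMART-Seq v4 kit. The submitters' processing notes name the builds GRCm38 and mm10 and the tools featureCounts 2.0.1, DESeq2 1.26.0 and edgeR 3.28. Aligner, annotation and strandedness were not given in the sources used here, so antisense reads cannot be told apart. The log2 fold changes and the false discovery rates (adjusted p-values), both named as means, come from the authors' deposited table, per the file headers. Of the gene symbols, 25623 were filled in the count table.

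In R 4.3.3 with edgeR 4.0.16, filterByExpr removed low counts, TMM (a trimmed mean of ratios) set the scale, and the model had genotype as its only term. Alternatives were DESeq2 1.42.0, limma 3.58.1 (voom with sample weights), other scalings and filters, the replicate number as a block, each library left out, the receptor share as a covariate and libraries of similar share. Intervals of fold changes are 95% intervals over libraries. Correlations used log2 CPM with a prior count of 2. The genes, lists and alternatives were chosen with earlier results of these data known, and the count ratios and the fit without deleted replicate 1 and control replicate 2 after seeing the values. Named genes are the 10 genes, the 3 of smallest p in each list, Stk3, Stk4, Foxp3 and Rela as checks, and 1 most similar gene each. Outside this rule, Cd4, Ms4a1 and Ltbr were named after their values were seen. Stk3 (log2 fold change -0.01) and Stk4 (-0.31) did not pass the test. Levels were not compared between genes, since no transcript lengths were used. Marker lists gave, for 7 tested myeloid genes 1 higher (Fcgr3), for 5 CD8 and NK genes none called, for 4 dendritic genes 1 higher (Xcr1), for 4 erythroid genes none called and for 3 follicular or stromal genes none called. Of all genes tested, 8.52% were lower and 1.66% higher.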

Additional observations from a re-analysis of the deposited data

Results flagged for a closer look

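Among 20 sets of 6 or 7 libraries, 3 had a single library far from the rest, where chance gives about 1 in 20. The sets share libraries and the genes vary together within groups. They are therefore not independent, and an excess over that rate cannot be judged. In the deleted group Tnfaip3 was at 197 CPM in replicate 1, far above the other 5 libraries. In the control group Icam1 was at 25.5 CPM and Tnip1 at 61.2 CPM in replicate 2, far below the other 6 libraries.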

How the results depend on the processing

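No gene of the 10 was called higher under any alternative. The 4 genes called lower became 1 (Icam1) with the replicate block, where Traf1 (adjusted p = 0.11), Ltb (0.138) and Tnip1 (0.179) did not pass (3.05% of all genes lower there), 2 in a fit of genes of at least 50 mean CPM (which leaves out Icam1 and Bcl3), and 0 under the receptor share covariate or in libraries of similar share. Leaving out 1 library gave 1 to 5. Over all genes, 2050 were lower and 400 higher. Lower against higher counts were 1208 and 761 with upper quartile scaling, 734 and 118 with the replicate block, 695 and 881 with scaling by genes of at least 50 mean CPM, 56 and 54 with that covariate, and 101 and 38 in libraries of similar share. Higher counts were 710 with DESeq2 and 1174 with limma-voom. Other counts of lower genes were 812 among genes of at least 50 mean CPM and 1144 with a log2 fold change of at least 1. Leaving out libraries gave 1034 to 3802 lower and 167 to 1216 higher, the top values when deleted replicate 1 and control replicate 2 were both left out.

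Direction turned for Tnfaip3 with upper quartile scaling (0.12), the filter of 10 CPM in 6 libraries (0.0055), without deleted replicate 4 or 5 or control replicate 4 (fits without 1 library or without both named below gave -0.42 to 0.024), among genes of at least 50 mean CPM (0.30), with scaling by them (0.30), with the covariate (0.55) and at similar share (0.28). It turned for Cflar in the last 4 fits (0.16, 0.16, 0.18 and 0.0054), for Birc3 in the last 2 (0.49 and 0.18), for Nfkbiz with the covariate (0.13) and for Bcl3 without deleted replicate 1 and control replicate 2 (such fits gave -0.044 to 0.29). None of these values passed the test. The cause was not tested. The 5 ratios named kept direction and an exact permutation p under 0.05 in every fit that left out 1 library. That is no separate check of them. Groups that do not overlap over all libraries cannot overlap, or turn direction, when 1 library is left out. Same-numbered libraries did not vary together (correlations of -0.319 to 0.407, with 0 of 6 deleted libraries most like their own number), so the replicate block pairs numbers only. At 2671660 to 8323919 counts per library, the lowest count of any of the 10 genes was 58 (Icam1).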
